A study of Mus musculus with 6 samples.

Results

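Runx2, Sp7, Dlx3, Dlx5, Dlx6 and Msx2, transcription factors of the osteoblast lineage, were followed through the cells of the mouse fracture callus by single-cell RNA-seq. They were chosen by symbol and make up 6 of the 52081 gene identifiers that all 6 libraries listed. Calluses were collected 14 days after femoral fracture from male mice that were 12 weeks old. The control group had 3 libraries, with a genotype given as wt in the labels and as Piezo1 f/f in the study's methods. The knockout group also had 3 libraries. Its label reads Col2CreERT; Piezo3-/-, the design text of the series gives Piezo1-/-, and the methods give Col2a1CreERT2; Piezo1 f/f. Tamoxifen was given to controls and knockouts alike, in 5 daily injections of 75 mg/kg that began on day 5 of healing. The Cre recombinase was driven by Col2a1, so recombination was limited to cells that had used this cartilage promoter. The study's text gives the number of animals per group in more than one way and no source ties a library to an animal, and the p-values below measure only the spread between libraries.

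A level is given in CPM, the UMIs (unique molecular identifiers, 1 per captured transcript) of a gene per 1000000 UMIs summed over the cells of a class in a library. It is not divided by gene length, so levels are compared between classes and not between genes. Fewer cells with a transcript and fewer transcripts per cell cannot be told apart in such a sum. Cells were clustered without the 6 genes and clusters were named from marker genes. Hypertrophic chondrocyte-like (HTC-like) cells expressed Col10a1, Ihh and Pank1, and osteoprogenitor-like cells Wif1, Kcnk2 and Gdpd2. Osteoblast-like cells expressed Bglap, Ifitm5 and Ibsp, and osteocyte-like cells Dmp1, Phex and Ptprz1. After filtering, 41652 cells remained, with 592 HTC-like, 1468 osteoprogenitor-like, 1876 osteoblast-like and 325 osteocyte-like cells. The libraries held 57626530 to 103784364 UMIs. Pairs of libraries shared at most 0.383% of the barcodes of the smaller library. Control 2, with 6 HTC-like cells, and knockout 1, with 9 osteocyte-like cells, gave no level for those classes because a minimum of 10 cells was set.

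Some libraries stood apart from the others. In knockout 2, osteoprogenitor-, osteoblast- and osteocyte-like cells together made up 55.4% of the stromal cells, against 2.74% to 15.7% in the other libraries. Col2a1 in the chondrocyte-like cells of knockout 2 was 5681 CPM, against 17610 to 63940 elsewhere. Knockout 3 held 410 of the 592 HTC-like cells. The 7 HTC markers came to 15660 and 14600 CPM in the HTC-like cells of control 3 and knockout 2. In the other libraries with a level they came to 35590 to 53250. The 8 osteoblast markers came to 63940 and 25690 in the HTC-like cells of control 3 and knockout 2, against 11810 to 25150. In osteoblast-like cells the osteoblast markers came to 102300 to 144400. Piezo1, the targeted gene, was at 68.2, 41.8 and 50.4 CPM in the chondrocyte-like cells of the controls and at 134, 49.5 and 50.8 in those of the knockouts. These ranges overlapped, but a 3′ tag also counts a Piezo1 transcript that has lost its floxed exons, so this level checks neither the deletion nor the labels.

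Runx2 is the runt-domain factor that commits mesenchymal cells to the osteoblast fate and also drives the hypertrophy of chondrocytes. Sp7, also called osterix, is a zinc finger factor that acts downstream of Runx2 and is needed for osteoblasts to form. The Dlx and Msx genes encode homeodomain proteins, of which Dlx3, Dlx5 and Dlx6 are known to act in bone-forming cells and Msx2 in skeletal progenitors. In endochondral repair, cartilage is replaced by bone, and hypertrophic chondrocytes stand at the border between both tissues.

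Runx2 had its highest mean level in HTC-like cells. It reached 457 CPM in control 1 and 303 in control 3. In knockouts 1, 2 and 3 the HTC-like levels were 426, 234 and 234. The highest levels were those of replicate 1 of both groups. HTC-like cells there had median depths of 41060 and 42760 UMIs, against 15550 to 18420 in the other libraries with a level. The mean over these 5 libraries was 331 ± 105 (SD), followed by 270.1 ± 46.3 in osteoprogenitor-like, 238 ± 56.2 in osteoblast-like and 164 ± 64.9 in osteocyte-like cells. No neighbours among these 4 classes differed beyond their spread, which means that the mean within-library log2 difference was smaller than its SD over libraries. HTC-like cells were above osteoprogenitor-like cells in 4 of 5 libraries, by 0.29 ± 0.34 on the log2 scale. Against osteoblast-like cells they were higher in 5 of 5 libraries, by 0.51 ± 0.28. With resolution 0.4, or with inflammatory chondrocyte-like cells counted as HTC-like, the highest mean of Runx2 was in osteoprogenitor-like cells. Outside these classes Runx2 stood at 132 ± 40.7 in other chondrocyte-like and 98.7 ± 42.4 in other stromal cells. It was at 22.1 ± 5.69 in immune and 13.2 ± 8.09 in vascular cells, and among immune cells at 74.7 ± 28.5 in lymphocyte-like cells. These comparisons between classes are descriptions, because the clusters were made from other genes of the same cells.

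Runx2 lies on the minus strand of chromosome 17 at chr17:44495987-44814797 (GRCm38, GENCODE M21). Its span shares 37646 bases with Supt3 on the opposite strand and also holds the antisense genes Runx2os1, Runx2os2 and Runx2os3. The strand setting of the counting was not given in the sources used here, so reads of overlapping genes cannot be told apart. The promoter window of Runx2 is shown because the Runx2 protein is known to bind the promoter of its own gene. The RefSeq window for GRCm38.p6 runs from 250 bases before to 50 after the start site, at chr17:44814578-44814877 on the minus strand, and the motif ACCACA is in capitals.
Runx2: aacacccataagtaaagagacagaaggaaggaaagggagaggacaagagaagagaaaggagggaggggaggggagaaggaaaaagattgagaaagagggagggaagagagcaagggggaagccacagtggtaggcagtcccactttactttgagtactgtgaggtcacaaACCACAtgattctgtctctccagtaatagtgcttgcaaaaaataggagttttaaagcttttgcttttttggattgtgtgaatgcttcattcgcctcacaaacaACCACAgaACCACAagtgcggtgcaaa
Searched on both strands as ACCACA and TGTGGT, the window held 3 matches. A match was found in 16.8% of 32851 promoter windows of this length, and 3 or more matches in 0.183%. A match in these letters is not a measured binding site.

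**Figure D1:**
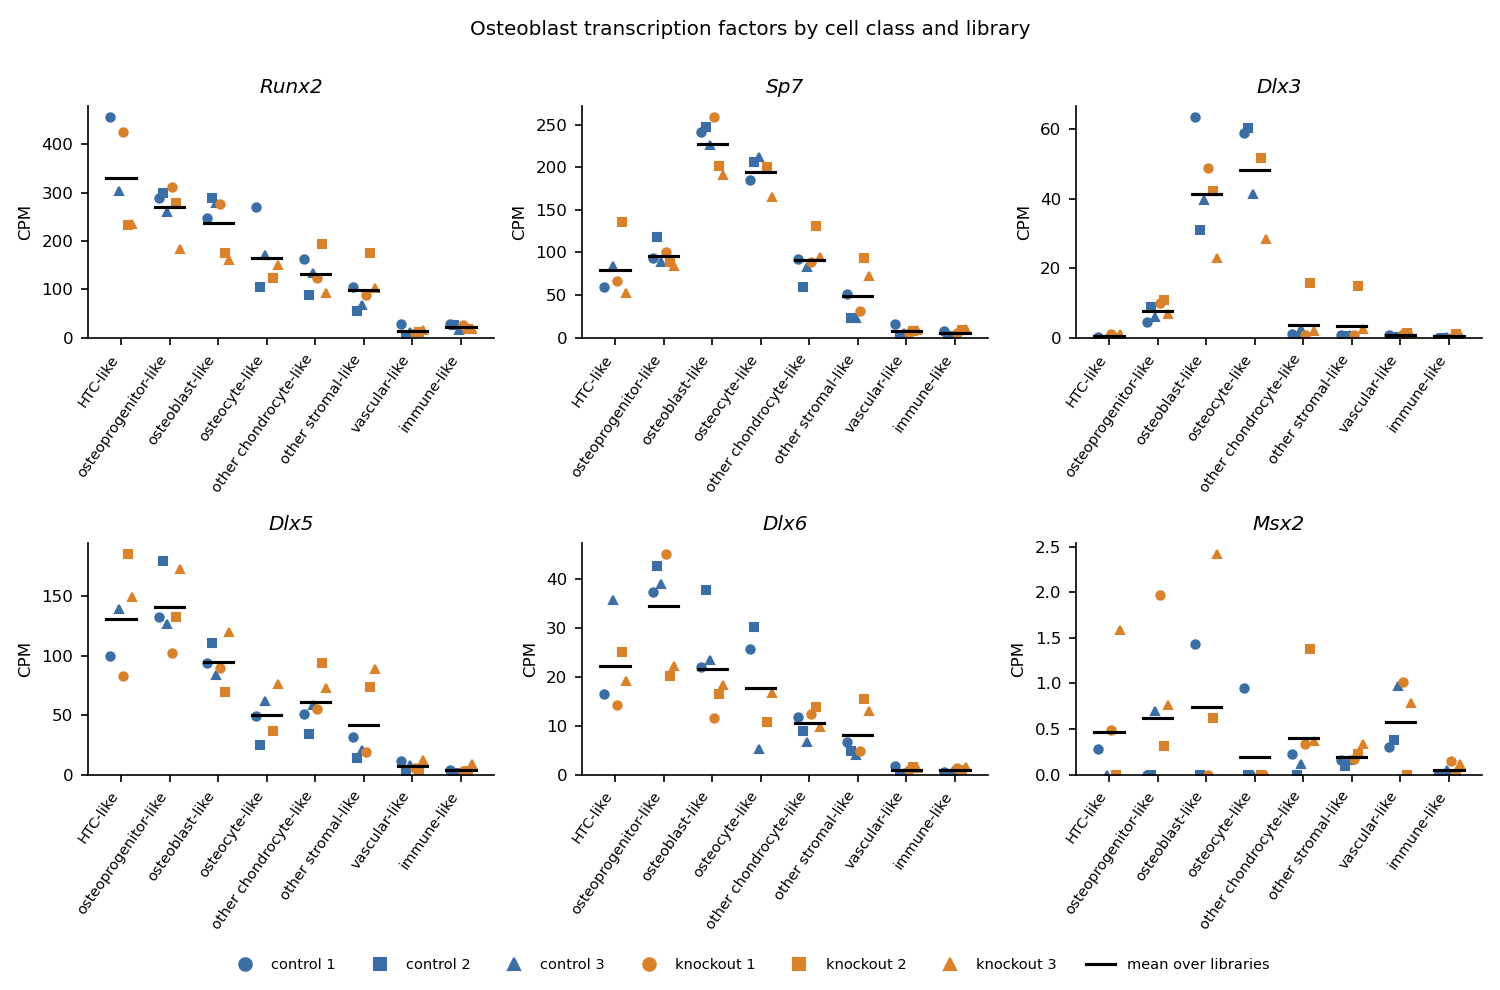
Level of each of the 6 genes in 8 cell classes, in CPM on a linear axis that starts at 0 and differs between panels. Each point is a library with at least 10 cells of the class (blue, control; orange, knockout; circle, square and triangle for replicates 1, 2 and 3) and each black bar is the mean over libraries. Runx2 has its highest mean in HTC-like cells at 331, Sp7 in osteoblast-like cells at 228 and Dlx3 in osteocyte-like cells at 48.2.

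Sp7 was ordered differently. In osteoblast-like cells it was at 241, 247 and 226 CPM in controls 1, 2 and 3, and at 259, 201 and 191 in the knockouts. The 5 osteocyte-like levels lay between 165 and 212. In osteoprogenitor-like cells all 6 levels were lower, from 83.8 to 118. The means were 228 ± 26.8, 194 ± 19.0 and 95.6 ± 12.2. Osteoblast-like cells were above osteocyte-like cells in 5 of 5 libraries, by 0.19 ± 0.15 on the log2 scale, and osteocyte-like above osteoprogenitor-like cells in 5 of 5, by 1.03 ± 0.18. Both steps exceeded their spread. HTC-like cells, at 79.4 ± 33.6, other chondrocyte-like cells, at 91.3 ± 23.1, and osteoprogenitor-like cells could not be ordered beyond their spread. Sp7 was at 7.5 ± 4.85 in vascular and 6.04 ± 3.36 in immune cells. The gene is at chr15:102356606-102367182 on the minus strand (GRCm38), and no annotated gene overlaps it.

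The ratio of Sp7 to Runx2 UMIs within a library needs no common denominator. It was 0.273 ± 0.181 in HTC-like and 0.360 ± 0.0555 in osteoprogenitor-like cells. It was 0.985 ± 0.155 in osteoblast-like and 1.32 ± 0.491 in osteocyte-like cells. The 6 osteoprogenitor-like ratios, from 0.321 to 0.459, all lay below the 6 osteoblast-like ratios, from 0.808 to 1.197. The HTC-like ratios, from 0.130 to 0.581, overlapped those of osteoprogenitor-like cells and were lowest in control 1 and knockout 1, at 0.130 and 0.156. They were highest in knockout 2 and control 3, at 0.581 and 0.276, as was HTC-like Sp7, at 136 and 83.7 CPM. In the HTC-like cells of these libraries the osteoblast markers came to 25690 and 63940 CPM, above the HTC markers at 14600 and 15660. The part of these markers in the ratios was not tested. The osteocyte-like ratios, from 0.681 to 1.952, overlapped those of osteoblast-like cells and were lower in control 1 and knockout 3 and higher in the other libraries that had both classes. The mean ratio of other chondrocyte-like cells, 0.711 ± 0.157, stood between those of osteoprogenitor-like and osteoblast-like cells.

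Dlx5 and Dlx6 are neighbours on chromosome 6, with Dlx5 at chr6:6877805-6882085 on the minus strand and Dlx6 at chr6:6863334-6868568 on the plus strand (GRCm38). The gap between both genes is 9236 bases. All 5235 bases of Dlx6 lie within Dlx6os1, an antisense RNA gene on the opposite strand, so a count of Dlx6 may hold reads of Dlx6os1 and is uncertain. No annotated gene overlaps Dlx5.

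Dlx5 was highest in osteoprogenitor-like cells. Its levels there were 133, 180.0 and 126 CPM in controls 1, 2 and 3, and 102, 133 and 173 in the knockouts. Its HTC-like levels were 99.5 and 139 in controls 1 and 3 and 82.6, 186 and 149 in the knockouts. The means, 141 ± 29.7 and 131 ± 41.1, did not differ beyond the spread. Osteoblast-like cells followed at 94.4 ± 18.3 and osteocyte-like cells at 49.9 ± 20.1, below the 61.0 ± 20.6 of other chondrocyte-like cells but within the spread of that difference. In osteoblast-like cells Dlx5 was lower and Sp7 higher than in osteoprogenitor-like cells, each in 6 of 6 libraries. From osteoblast-like to osteocyte-like cells both genes were lower in 5 of 5 libraries, Dlx5 by 0.99 ± 0.65 on the log2 scale.

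Dlx6 followed Dlx5 at a lower count. Its mean was 34.5 ± 10.7 CPM in osteoprogenitor-like, 22.2 ± 8.66 in HTC-like, 21.6 ± 9.01 in osteoblast-like and 17.7 ± 10.3 in osteocyte-like cells. No neighbours in this order differed beyond their spread. Osteoprogenitor-like cells were above osteoblast-like cells in 6 of 6 libraries, by 0.68 ± 0.64 on the log2 scale. They were above osteocyte-like cells in 5 of 5, by 0.99 ± 0.97. The ratio of Dlx6 to Dlx5 UMIs had means from 0.172 in HTC-like to 0.259 in osteoprogenitor-like cells, with 0.463 ± 0.441 in osteocyte-like cells, where control 2 alone stood at 1.2. Both genes were low outside the stroma, with Dlx5 at 7.42 ± 3.91 in vascular and 3.59 ± 2.95 in immune cells and Dlx6 at 1.00 ± 0.624 and 0.876 ± 0.536.

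Dlx3 had the narrowest distribution of the Dlx genes. In osteocyte-like cells it was at 59.0, 60.4 and 41.4 CPM in controls 1, 2 and 3 and at 51.6 and 28.5 in knockouts 2 and 3. In osteoblast-like cells the levels were 63.5, 31.0 and 39.5 in the controls and 49.0, 42.2 and 23.0 in the knockouts. These classes, at 48.2 ± 13.3 and 41.4 ± 14.1, did not differ beyond their spread. Osteoprogenitor-like cells were at 7.83 ± 2.40, below osteoblast-like cells in 6 of 6 libraries by 2.24 ± 0.72 on the log2 scale. In HTC-like cells only 12 UMIs were counted over all libraries, a mean of 0.491 ± 0.562. Neutrophil-like cells, which should lack the gene, had 0.765 ± 0.870, so the HTC-like level was not above background. The 0 UMIs in the HTC-like cells of control 3 and of knockout 2 allow up to 12 and 7.54 CPM, counting error only. Dlx3 is at chr11:95120119-95125296 on the plus strand (GRCm38), and no annotated gene overlaps it.

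The ratio of Dlx3 to Dlx5 UMIs was 0.0580 ± 0.0248 in osteoprogenitor-like, 0.464 ± 0.191 in osteoblast-like and 1.21 ± 0.782 in osteocyte-like cells. The lowest osteoblast-like ratio, 0.192, was above the highest osteoprogenitor-like ratio, 0.0962. In HTC-like cells, where Dlx3 was not above background, the ratio carries no rank. Among the 3 lineage classes, the order of the mean Sp7 to Runx2 ratios was also that of the mean Dlx3 to Dlx5 ratios. Both osteocyte-like ratios were highest in control 2, at 1.952 and 2.4. They rest there on 22 cells, with 41 Sp7 and 21 Runx2 UMIs and with 12 Dlx3 and 5 Dlx5 UMIs. The osteocyte-like Sp7 to Runx2 ratios overlapped the osteoblast-like ones, so that step of the order holds for the means only. Other chondrocyte-like cells did not follow, with a Dlx3 to Dlx5 ratio of 0.0459 ± 0.0612.

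**Figure D2:**
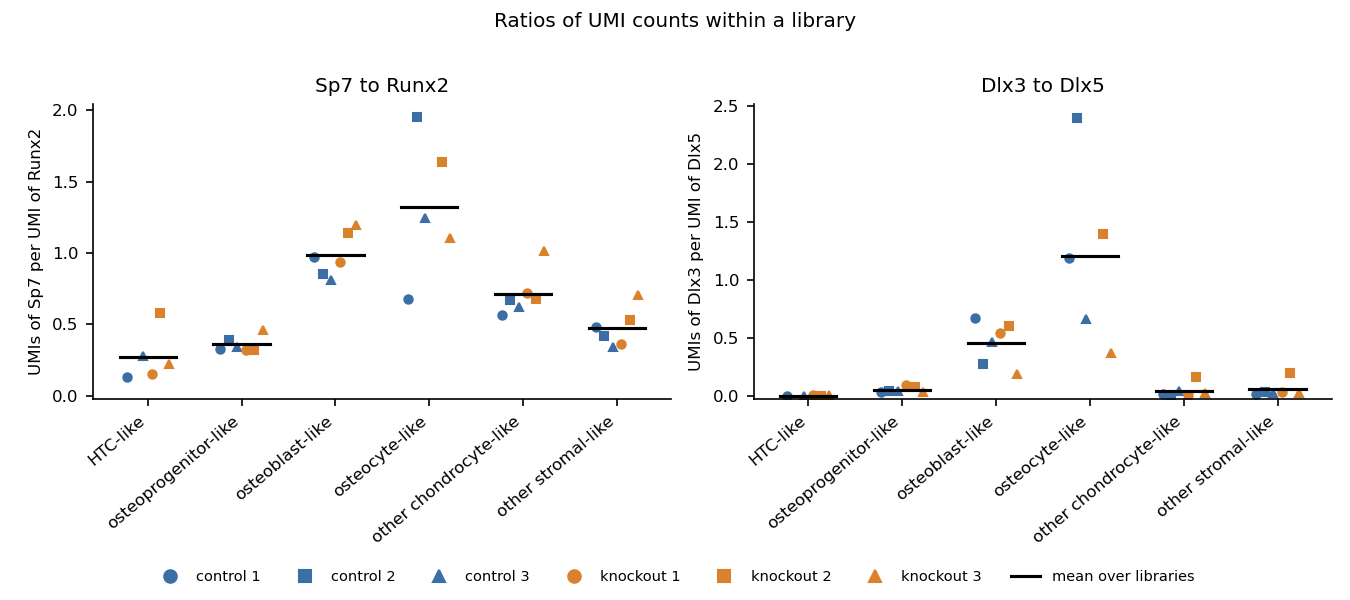
Ratio of Sp7 to Runx2 UMIs (left) and of Dlx3 to Dlx5 UMIs (right) in each library, by cell class, on linear axes. Points are libraries (blue, control; orange, knockout) and black bars are means over libraries. Both ratios have their highest means in osteocyte-like cells, 1.32 and 1.21, where the points are widely spread, and the right-hand points of HTC-like cells rest on 12 Dlx3 UMIs that are not above background.

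Msx2 was hardly detected. All 6 libraries together held 158 UMIs before cells were filtered, and the highest mean among the 8 classes was 0.747 ± 0.998 CPM in osteoblast-like cells. Of the 19 named classes, mural-like cells had the highest level, 2.23 ± 1.68. Msx2 is at chr13:53466884-53473074 on the minus strand (GRCm38). Its order among the classes rests on too few UMIs to be read.

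The share of cells with a UMI was compared after each cell was thinned to 1000 UMIs, because median depth differed between classes and libraries. A Runx2 UMI was then found in 26.9% ± 7.01 of HTC-like, 23.0% ± 3.18 of osteoprogenitor-like and 22.2% ± 3.85 of osteoblast-like cells, against 4.88% ± 2.01 of neutrophil-like cells. Sp7 was found in 20.1% ± 2.29 of osteoblast-like, 17.1% ± 2.19 of osteocyte-like, 9.10% ± 1.16 of osteoprogenitor-like and 7.16% ± 1.97 of HTC-like cells, against 0.665% of neutrophil-like cells. Dlx3 was found in 5.37% ± 1.03 of osteocyte-like and 3.91% ± 1.14 of osteoblast-like cells, and in 0.0618% of HTC-like and 0.0691% of neutrophil-like cells. The share of Dlx5 was 12.7% ± 3.62 in osteoprogenitor-like and 11.4% ± 3.36 in HTC-like cells, against 0.425% of neutrophil-like cells. That of Dlx6 was 3.43% ± 0.778 in osteoprogenitor-like cells, against 0.0537% of neutrophil-like cells. Without thinning, Runx2 was found in 91.0% of HTC-like cells and Dlx3 in 1.53%, at median depths of 15550 to 42760 UMIs, and in 14.2% and 0.184% of neutrophil-like cells, at 1441 to 5271 UMIs.

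**Figure D3:**
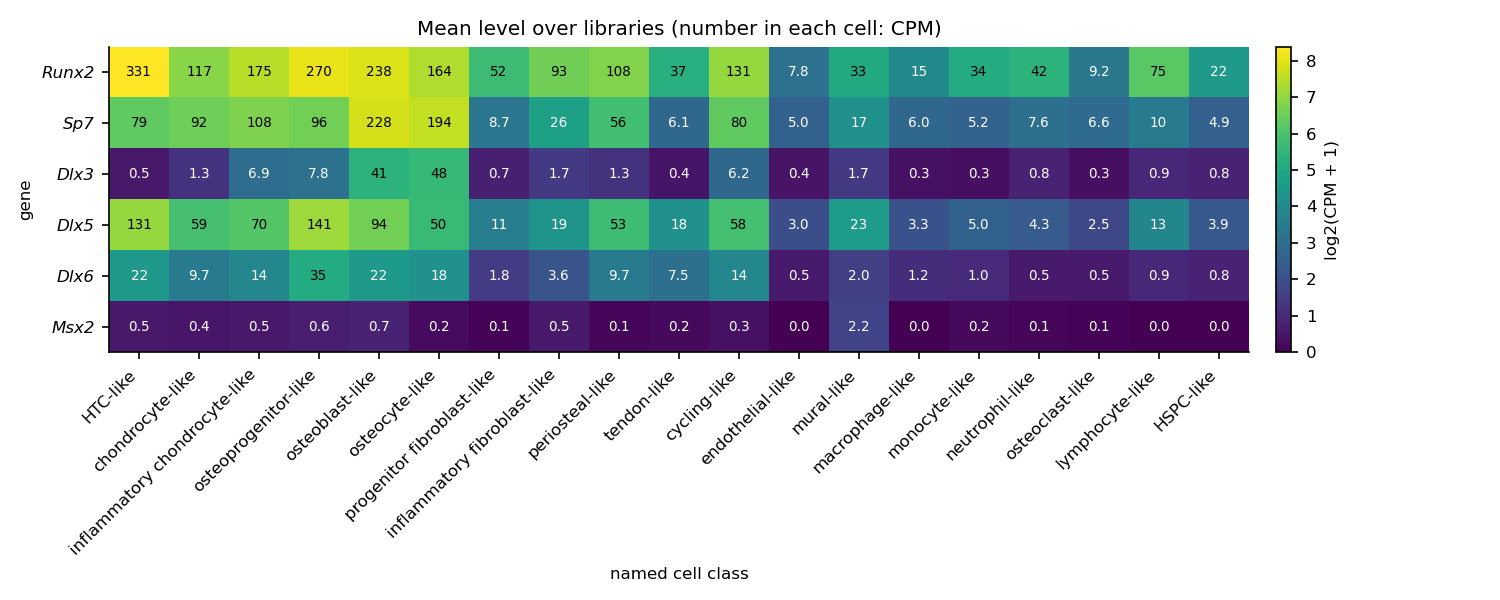
Mean level over libraries of each gene (rows) in 19 named cell classes (columns). Colour is log2(CPM + 1) and the number in each field is the mean in CPM. Runx2, Sp7, Dlx5 and Dlx6 are high across skeletal classes, Dlx3 is high in osteoblast- and osteocyte-like cells, and Msx2 is near 0 in all classes but mural-like cells, at 2.23.

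Over 19 named classes, the genes most like each factor were found by Pearson's r of the mean log2(CPM + 1) among 7000 genes. The classes share libraries, and r describes them only. Runx2 was most like Alpl, the alkaline phosphatase of mineralizing cells, at 0.904, and Dlx5, at 0.903. Sp7 was most like Ibsp, a bone matrix sialoprotein, at 0.963, Rcor2 at 0.960 and Alpl at 0.959. Dlx3 was most like Ifitm5, a membrane protein of mineralizing osteoblasts, at 0.965, Car3 at 0.962 and Bglap2, an osteocalcin gene, at 0.958. Dlx5 was most like Alpl, at 0.961, and Dlx6 most like Dlx5, at 0.963. Alpl, Ibsp, Ifitm5 and Bglap2 were among the osteoblast markers.

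The knockout was compared with the control in each class by edgeR's quasi-likelihood test on UMI sums per library, with Benjamini-Hochberg adjustment over all genes tested and a threshold of 0.05. The comparison asks whether the loss of Piezo1 in Col2a1-expressing cells went with other levels of these factors. None of the 6 genes passed in any class. In HTC-like cells, 0 of 4 members tested were called, beside 0% of 10818 genes, and no member had an unadjusted p under 0.05, beside 0.776% of genes. Dlx3 and Msx2 were removed there by the filter on low counts. Runx2 differed by -0.37 (95% interval -1.43 to 0.68), Sp7 by 0.18 (-0.92 to 1.28), Dlx5 by 0.20 (-0.89 to 1.29) and Dlx6 by -0.29 (-1.51 to 0.94) on the log2 scale, knockout minus control. As folds, the interval of Runx2 ran from 0.371 to 1.60 and that of Sp7 from 0.530 to 2.43.

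In osteoprogenitor-like cells, 0 of 5 members tested were called, beside 0% of 10895 genes, and 0 had an unadjusted p under 0.05, beside 4.53% of genes. Runx2 and Sp7 differed by -0.06 (-0.69 to 0.57) and -0.05 (-0.58 to 0.49). Dlx5 differed by 0.02 (-0.66 to 0.69), Dlx3 by 0.62 (-0.29 to 1.53) and Dlx6 by -0.50 (-1.17 to 0.16). In osteocyte-like cells, 0 of 5 members were called, beside 0% of 7538 genes, and 0 had an unadjusted p under 0.05, beside 7.88% of genes. The differences ran from -0.62 for Dlx6 (-1.76 to 0.52) to 0.36 for Dlx5 (-0.57 to 1.28). In osteoblast-like cells, 0 of 5 members were called, beside 0% of 9246 genes, and 0 had an unadjusted p under 0.05, beside 5.83% of genes. Runx2 differed by -0.39 (-0.99 to 0.22), Sp7 by -0.09 (-0.63 to 0.46), Dlx3 by -0.23 (-1.0 to 0.54) and Dlx5 by 0.01 (-0.58 to 0.60). DESeq2, run on the same sums, also called no member in any class. It called 4 genes (0.0367%) in osteoprogenitor-like, 7 (0.0757%) in osteoblast-like and 20 (0.164%) in osteoblast lineage-like cells, and 0 genes in the other comparisons. At an unadjusted p under 0.05, DESeq2 gave no member in HTC-like (0.499% of genes), osteoprogenitor-like (3.07%), osteoblast-like (3.54%), osteocyte-like (3.12%) or lineage-like cells (6.78%) or in the interaction described below (0.732%). It gave 2 of 5 members in the stromal-like cells outside the 4 classes (2.16%) and 4 of 6 in all stromal-like cells (2.19%).

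**Figure D4:**
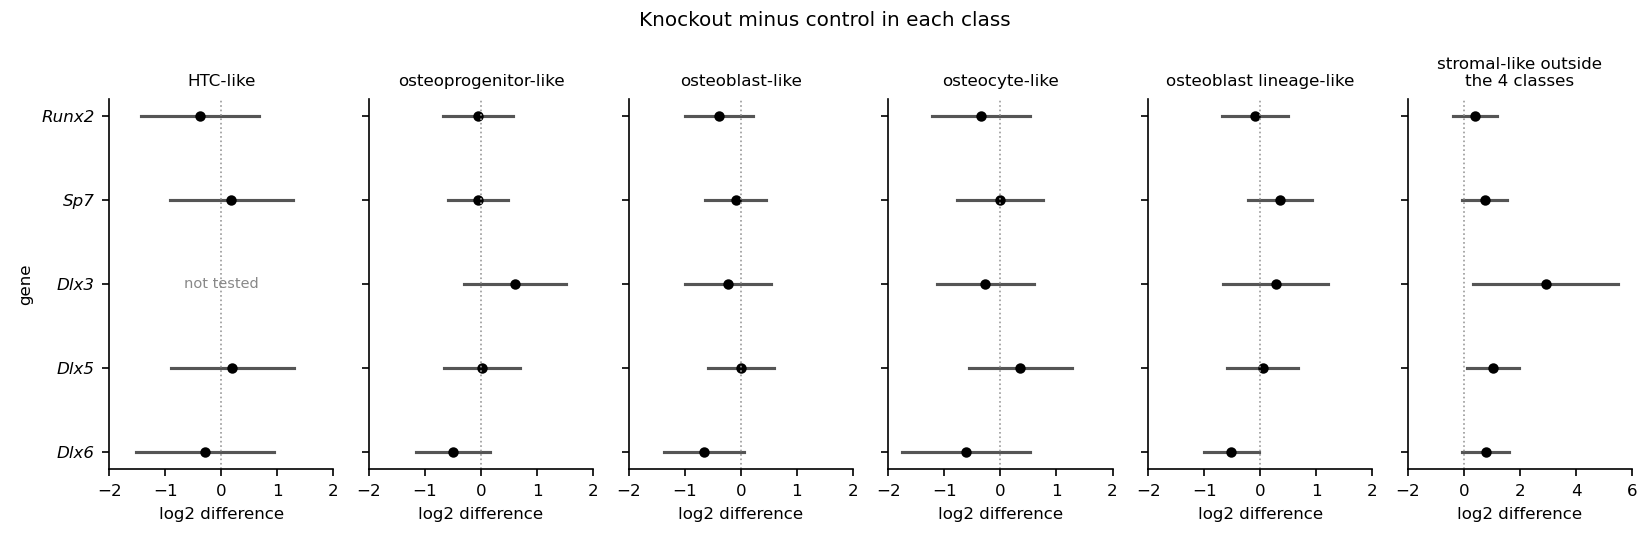
Log2 difference, knockout minus control, of 5 genes in 5 sums of cells of the skeletal lineages and in the stromal-like cells outside the 4 classes. Points are edgeR estimates and lines their 95% intervals, and the axis of the last panel is wider. All intervals cross 0 except those of Dlx6 in lineage-like cells and of Dlx3 and Dlx5 outside the 4 classes, and Dlx3 outside the 4 classes has the widest, from 0.34 to 5.49.

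Among the classes of the lineage and their sum, Dlx6 was the only member whose groups did not overlap. In osteoblast-like cells its levels were 22.0, 37.8 and 23.5 CPM in the controls and 11.5, 16.4 and 18.3 in the knockouts. The difference was -0.65 (-1.36 to 0.06). In the osteoblast lineage-like sum, which joins osteoprogenitor-, osteoblast- and osteocyte-like cells, the levels were 27.4, 39.9 and 33.5 in the controls and 25, 16.8 and 19.3 in the knockouts. Again the groups did not overlap. The difference was -0.51 (-1.0 to -0.03) with a standard error of 0.22, and edgeR gave an unadjusted p of 0.0410 and an adjusted p of 0.658. The unadjusted p was above 0.05 without control 2 (0.124), control 3 (0.0842), knockout 2 (0.134) or knockout 3 (0.0965), with the replicate number as a block (0.0516), with replicate 3 of both groups left out (0.170), without the filter on low counts (0.148) and in DESeq2 (0.0708), and the difference stayed negative in each. Lower levels without overlap in the knockout were found for 1 of 5 members tested in both sums, beside 5.86% of all genes in osteoblast-like and 11.6% in lineage-like cells, and higher levels without overlap for 0, beside 4.63% and 2.19%. No member was without overlap in HTC-like (5.97% of genes higher, 5.39% lower), osteoprogenitor-like (2.56% and 6.67%) or osteocyte-like cells (10.5% and 14.5%). An unadjusted p under 0.05 was found for 1 of 5 members in the lineage-like sum, beside 7.49% of genes, and no member was called there, beside 0% of 12185 genes. The mixture of the lineage-like sum also varied. Osteoprogenitor-like cells, where Dlx6 was highest, made up 41.4%, 62.9% and 70.3% of the lineage-like cells in the controls and 39.3%, 32.8% and 30.8% in the knockouts. Of the UMIs of the sum, which set its level, they gave 29.4%, 56.9% and 69.5% in the controls and 35.3%, 23.1% and 29.6% in the knockouts. The groups did not overlap by cells and overlapped by UMIs, with control 1 below knockouts 1 and 3. The 6 macrophage markers, none of them at 0, came together to 29.7 to 44.4 CPM in the osteoblast-like sums of the controls and 76.3 to 136 in those of the knockouts. They were also higher without overlap in the knockouts in HTC-like cells, at 36.0 to 39.8 against 63.4 to 123, in osteoprogenitor-like cells, at 27.4 to 65.0 against 80.7 to 176, and in osteocyte-like cells, at 30.2 to 67.3 against 71.3 to 124. In osteocyte-like cells the neutrophil, endothelial and osteoclast markers were higher without overlap too, at 53.3 to 609.5, 25.9 to 45.3 and 60.4 to 246 in the controls. They came to 694 to 829, 49.9 to 64.2 and 263 to 608 in the knockouts. In HTC-, osteoprogenitor- and osteoblast-like cells the groups overlapped for these lists. The part of the mixture and of these markers in the Dlx6 difference was not tested.

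The groups overlapped for the other members in the lineage-like sum. Runx2 was at 265.5, 278 and 261 CPM in the controls and 298.5, 195 and 165.5 in the knockouts, a difference of -0.09 (-0.68 to 0.50). Sp7 was at 184, 170 and 130 in the controls and 196.5, 175 and 157 in the knockouts, a difference of 0.35 (-0.22 to 0.92). The signs of the Sp7 difference in this sum, 0.35, and within osteoprogenitor-like and osteoblast-like cells, -0.05 and -0.09, were not the same. Dlx3 and Dlx5 differed by 0.28 (-0.66 to 1.22) and 0.05 (-0.59 to 0.68). Msx2 was removed by the filter on low counts in the lineage-like sum.

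The stromal-like cells outside the 4 classes, 14013 in all, held the other chondrocyte-like (inflammatory ones included), fibroblast-like, periosteal-like, tendon-like and cycling clusters and 3956 cells of 2 unnamed clusters. Of the unnamed cells, 3039 formed a cluster with a median of 762 UMIs, although they had been clustered with stromal cells at first. Its leading genes were headed by Mir6236, Lars2 and mt-Rnr1 and also included Lyz2 and Apoe, known from macrophages. The class with the highest marker score was an immune one. Among classes with the 3 markers needed for a name, chondrocyte scored highest, but no chondrocyte marker was among the leading genes. The cluster thus stayed unnamed. The unnamed clusters gave 28.2% of the cells and 1.13% to 10.9% of the UMIs of this sum, the highest share being that of knockout 2. In this sum, 0 of 5 members tested were called, beside 0% of 17717 genes, and 2 had an unadjusted p under 0.05, beside 1.51% of genes. Dlx3 was at 0.941, 0.3535 and 1.18 CPM in the controls and at 0.704, 17.1 and 2.12 in the knockouts. Knockout 2 alone was far above the rest. The Dlx3 difference was 2.91 (0.34 to 5.49) with an unadjusted p of 0.0312 and an adjusted p of 0.9998 in edgeR, and it was 0.86 (-0.84 to 2.56) without knockout 2. In neutrophil-like cells, which should lack Dlx3, knockout 2 was also the highest library, at 2.13 CPM. Dlx5 was at 41.7, 23.5 and 30.5 in the controls and at 33.05, 79.4 and 77.9 in the knockouts. Knockout 1 lay within the controls and the other knockouts above them. The Dlx5 difference was 1.05 (0.12 to 1.98) with an unadjusted p of 0.0322 and the same adjusted p, 0.905 (-0.15 to 1.96) without knockout 2 and 1.37 (0.75 to 1.99) without knockout 1. Without knockout 1, 4 of 6 members and 9.39% of all genes had an unadjusted p under 0.05 in edgeR, against 1.51% of genes with all libraries. With all libraries, none of the 5 members tested was without overlap, beside 1.79% of genes higher and 2.05% lower. Msx2, removed there by the filter on low counts, was at 0.101 to 0.184 CPM in the controls, from 8, 2 and 5 UMIs, and at 0.2515 to 0.423 in the knockouts, from 10, 5 and 15 UMIs, so its groups did not overlap. Without the unnamed clusters, the differences were 2.79 (0.30 to 5.29) for Dlx3 and 1.02 (0.08 to 1.96) for Dlx5. Sp7, Dlx6 and Runx2 differed by 0.75 (-0.05 to 1.54), 0.77 (-0.06 to 1.61) and 0.40 (-0.38 to 1.18). Marker sums also differed between libraries. The 6 osteoprogenitor markers came to 283.5 CPM in knockout 2, against 76.05 to 114 in the other libraries, and the 15 chondrocyte markers to 1931, against 9774 to 58710. In knockout 3, where Dlx5 was also above the controls, these sums were 114 and 58710. The 8 osteoblast markers came to 20920 to 31680 in the controls and 30290 to 34280 in the knockouts, and the 6 macrophage markers to 29.1 to 59.6 and 80.0 to 185. None of these markers was at 0. Their part in the Dlx3 and Dlx5 differences was not tested.

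Summed over all stromal-like cells, 0 of 6 members were called, beside 0% of 18116 genes, and 1, Msx2, had an unadjusted p under 0.05, beside 1.4% of genes. Msx2 had 13, 2 and 7 UMIs in the controls and 13, 19 and 42 in the knockouts, or 0.252, 0.0905 and 0.187 CPM and 0.301, 0.471 and 0.703 CPM. These groups did not overlap, as was true of 1 of 6 members in this direction, beside 1.19% of genes, and of 0 in the other, beside 2.62%. The Msx2 difference was 1.56 (0.16 to 2.95), with an unadjusted p of 0.0334 and an adjusted p of 0.9998 in edgeR. The differences were 0.90 (-0.07 to 1.87) for Sp7, 0.91 (-0.02 to 1.85) for Dlx5 and 0.38 (-0.40 to 1.16) for Runx2. In this sum the cell classes are mixed, and the osteoblast lineage-like cells gave 69.7% of the stromal UMIs of knockout 2, against 3.33% to 14.7% in the other libraries. Its part in the differences was not tested. Without knockout 2, the differences were 1.57 (-0.13 to 3.27) for Msx2, 0.43 for Sp7, 0.78 for Dlx5, 0.09 for Runx2 and 0.04, in place of 2.04, for Dlx3. Without knockout 1, 5 of 6 members had intervals above 0, Runx2 being the exception, with adjusted p-values of at least 0.408 in edgeR. In that setting 11.43% of all genes had an unadjusted p under 0.05 in edgeR, against 1.4% with all libraries. The higher count of members thus came with a higher share of all genes.

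Whether the genotype difference itself differed between HTC-like and osteoblast lineage-like cells was tested as an interaction with the library as a block. By edgeR, 0 of 5 members were called, beside 0% of 13516 genes. The difference of differences was -0.24 (-1.03 to 0.55) for Runx2, -0.12 (-1.04 to 0.81) for Sp7, 0.07 (-0.74 to 0.88) for Dlx5 and 0.23 (-0.81 to 1.28) for Dlx6. Dlx3 had an unadjusted p under 0.05, as did 1.55% of genes, but its value rests on 1 UMI in the HTC-like cells of the controls and 11 in those of the knockouts and is not given as a fold.

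The wider pathway was given by a list of 41 genes in 4 roles. By edgeR none of them was called in any class, beside 0% of all genes. The list was not looked up in the DESeq2 results. In the lineage-like sum, the partners and related factors had 3 positive and 5 negative differences among 8 of 11 genes tested, with a median of -0.17, beside 0.03 over all genes. Cbfb, the partner that lets Runx proteins bind DNA firmly, differed by -0.16, Runx1 by -0.58 and Runx3 by -0.18. The inhibitors had 2 positive and 3 negative differences among 5 of 6 tested, with Twist1, which restrains Runx2, at 0.03 and Hdac4 at -0.18. Snai2, named after its value was seen, was at -1.32 with an unadjusted p of 0.00934 and an adjusted p of 0.658 in edgeR. Of the upstream signals, 2 were positive and 5 negative among 7, with the growth factors Bmp2 and Bmp4 at -0.10 and -0.18 and Smad1, which carries their signal, at -0.04. The targets had 12 positive and 5 negative differences among 17, with a median of 0.41. Of these, Col1a1, Alpl, Ibsp, Bglap, Bglap2, Ifitm5 and Smpd3 were osteoblast markers and Dmp1, Phex, Mepe and Sost osteocyte markers. Pth1r was an HTC and Vdr an osteoprogenitor marker. These genes were on the lists used to name the classes and were not left out of the clustering. The mixture of classes in this sum varied between libraries, and its part in the target differences was not tested. Within the classes, 12 targets were positive and 2 negative in osteoprogenitor-like cells, with a median of 0.22, while 8 were positive and 8 negative in osteoblast-like and in osteocyte-like cells, with medians of -0.0059 and -0.04. Collagen genes Col1a1 and Col1a2 differed by 0.41 and 0.49 and Alpl by 0.15, each with an interval that crosses 0. Mepe, Ifitm5 and Pth1r, named after their values were seen, had differences of 1.54, 1.44 and 0.81 in the lineage-like sum. Each had an unadjusted p under 0.05, as did 7.49% of all genes, and an adjusted p of 0.658 in edgeR. Within the 4 classes, genes with such an unadjusted p in edgeR were named on the same ground. In osteoblast-like cells they were Cbfb, Sox9 and Runx1, 3 of 7 partners tested, beside 5.83% of genes. In osteoprogenitor-like cells they were Snai2, Tcf7 and 3 of 14 targets, Dmp1, Ibsp and Ifitm5, beside 4.53%. In osteocyte-like cells they were Bmp2 and 3 of 16 targets, Phex, Mepe and Sost, beside 7.88%. In HTC-like cells, 6 targets were positive and 8 negative among 14 tested, with a median of -0.16, beside 0.02 over all genes. Only Phex, 1 of these 14, had an unadjusted p under 0.05 in edgeR there, beside 0.776% of genes.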

How the data were processed

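6 libraries of callus cells were made with 10x Genomics 3′ chemistry. The authors deposited raw UMI counts per gene and cell from Cell Ranger, with GRCm38 as the build in the submitters' notes, version 6.1.1 for replicate 1 and 6.1.2 for replicates 2 and 3 of both groups, per the file headers. Replicate 3 of both groups lists 55357 genes against 55450 in the others. Cells with at least 500 UMIs, 200 genes and at most 20% mitochondrial UMIs were kept. Scrublet via scanpy 1.11.5 made no doublet calls in 4 of 6 libraries, so 0.8% of cells per 1000 cells, those with the highest scores, were removed, 3046 in all. Counts were integrated by library with reciprocal PCA in Seurat 5.3.0 (2000 variable genes without the 6 genes, 30 components) and clustered with leidenalg 0.10.2 at resolution 0.8, first all cells (30 of 35 clusters named) and then stromal cells (18 of 20). A name needed at least 3 listed markers, each detected in 25% of cells at a level at least 2 times its median over the clusters. The limits by which clusters of few UMIs or mixed markers stayed unnamed were chosen with the data in view, but not the genotypes. Clusters unnamed in the second step held 32.1% of the cells of control 1, 27.9% of knockout 1 and 1.67% to 8.25% of the others. Of their 3956 cells, 3039 were in a single cluster, whose highest score as a cluster was for an immune class.

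UMIs were summed per library and class and compared by the quasi-likelihood F test (both directions) of edgeR 4.0.16 after its default low-count filter and TMM scaling. Standard errors were taken from the F statistic. DESeq2 1.42.0 was an alternative. The methods name an adjusted p threshold for single-cell data but no test, and sums per library were used because cells of a library are not replicates. The scripts were tested on simulated data. The 6 genes, the pathway lists and the markers were chosen with earlier results of these data known. The 6 genes were named, and of each pathway role the genes that passed the test or else the first 3 of the list. Pathway genes with an unadjusted p under 0.05 in the lineage-like sum or the 4 classes were also named, after their values were seen. The sum of inflammatory chondrocyte-like with HTC-like cells, and the stromal sums without unnamed clusters, were tried after seeing the data. Counting intervals and limits cover counting error only. Reads, and the study's other experiments, were not analysed here.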

Additional observations from a re-analysis of the deposited data

How the results depend on the processing

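The number of members called, 0 in each comparison, was 0 under every alternative that gave a value, and the lowest adjusted p of a member over 600 alternative values was 0.175. The number of members with their highest mean in a lineage class, 5, ranged from 4 to 6. It included Msx2, whose order rests on too few UMIs to be read. It also included Dlx5 and Dlx6, which were not above HTC-like cells beyond the spread. The share of all genes with their highest mean in these classes was not computed. Runx2 moved from HTC-like to osteoprogenitor-like cells at resolution 0.4 and when inflammatory chondrocyte-like cells were counted with HTC-like cells, and Msx2 was highest in HTC-like cells without integration and with sums over all cells. Resolution 0.4 gave no osteocyte-like cluster, so it has no value there. The cause of these changes was not tested.

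Of 600 member differences, 529 kept their sign and 71 turned, none of them called. Without integration, the HTC-like difference of Dlx6 was 0.39 and of Runx2 0.053, the osteoblast-like difference of Dlx5 -0.35, the osteocyte-like difference of Sp7 0.0041, the lineage-like difference of Dlx5 -0.057, and the interactions of Sp7 and Runx2 0.29 and 0.13. At resolution 0.4, Dlx6 and Runx2 in HTC-like cells were at 0.29 and 0.026 and the Runx2 interaction at 0.31. At resolution 1.2, Dlx6 in HTC-like cells was at 0.26 and the Sp7 and Runx2 interactions at 0.044 and 0.086. With inflammatory chondrocyte-like cells counted in, Dlx6 and Runx2 were at 0.18 and 0.018 and the Runx2 interaction at 0.24. With 2 times the doublets removed, Dlx5 was at -0.015 and Sp7 at -0.27 in HTC-like cells, Dlx5 at -0.0062 in osteoprogenitor-like, -0.12 in osteoblast-like and -0.014 in lineage-like cells, and its interaction at -0.16. With the stricter cell filter, Dlx5 was at -0.037 in osteoblast-like and -0.014 in lineage-like cells. With replicate 3 of both groups left out, Dlx6 was at 0.18 in HTC-like, Dlx5 at -0.29 and Runx2 at 0.10 in osteoprogenitor-like, Dlx5 at -0.29 in osteoblast-like, Dlx3 and Sp7 at 0.026 and 0.26 in osteocyte-like and Dlx5 and Runx2 at -0.24 and 0.030 in lineage-like cells, with the Sp7 interaction at 0.50. Without a filter on low counts, Sp7 was at 0.10 in osteocyte-like cells and the Dlx5 interaction at -0.0062.

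Same-numbered libraries correlated in their deviations from the group means at 0.244 to 0.382 for replicate 1. The correlations were -0.166 to 0.126 for replicate 2 and -0.206 to 0.130 for replicate 3. Only the replicate 1 libraries thus deviated together in each sum that held both of them, which the osteocyte-like sum did not. Several of these sums share cells. In HTC-like cells, with only controls 1 and 3, the deviations of both controls mirror each other. The numbers were not taken to pair the samples. With the replicate number as a block, 0 members were called. Dlx5 and Sp7 were then at -0.057 and -0.18 in HTC-like, Dlx5 at -0.016 in osteoprogenitor-like and -0.013 in osteoblast-like and Runx2 at 0.088 in osteocyte-like cells, with the Dlx6 and Dlx5 interactions at -0.15 and -0.24. The count of all genes called was 0 in each main comparison, and under the block it was 28 in HTC-like and 20 in osteocyte-like cells and 44 in the interaction.

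Leaving out one library in turn gave ranges that crossed 0 for Dlx6 (-1.10 to 0.28), Dlx5 (-0.19 to 0.54) and Sp7 (-0.24 to 0.50) in HTC-like cells. They also crossed 0 for Dlx5 (-0.22 to 0.21), Sp7 (-0.12 to 0.087) and Runx2 (-0.15 to 0.12) in osteoprogenitor-like and Dlx5 (-0.24 to 0.18) and Dlx3 (-0.46 to 0.088) in osteoblast-like cells. In osteocyte-like cells the ranges were -0.12 to 0.78 for Dlx5, -0.87 to 0.12 for Dlx3, -0.22 to 0.20 for Sp7 and -0.59 to 0.010 for Runx2, and in lineage-like cells -0.21 to 0.20 for Dlx5, -0.058 to 0.88 for Dlx3 and -0.23 to 0.058 for Runx2. The interaction ranged from -0.42 to 0.55 for Dlx6, -0.16 to 0.24 for Dlx5 and -0.81 to 0.32 for Sp7. For Dlx6 in lineage-like cells the range was -0.64 to -0.42. Without control 1, 7 genes were called in HTC-like cells. In osteocyte-like cells, 7 were called without knockout 2, 17 without knockout 3 and 55 with replicate 3 of both groups left out, and in the interaction 2, 1 and 9. Without a filter on low counts, 14 genes were called in HTC-like, 111 in osteoprogenitor-like, 68 in osteoblast-like, 42 in osteocyte-like and 222 in lineage-like cells and 12 in the interaction. Without integration, 26 were called in osteoblast-like cells, and with 2 times the doublets removed 8 in the interaction.

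The HTC-like comparison had 2 control libraries, of 89 and 16 cells, and 410 of its 592 cells were from knockout 3.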

Other observations

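Further named stromal classes, which are parts of the other chondrocyte-like and other stromal classes above, also carried several of these factors. In inflammatory chondrocyte-like cells, marked by Chil1 and Lcn2, Runx2 was at 175 ± 39.5 CPM (UMIs per 1000000 UMIs of the class), Sp7 at 108 ± 23.3, Dlx5 at 69.7 ± 24.9 and Dlx3 at 6.93 ± 9.01 (SD over 6 libraries). Cycling cells had Runx2 at 131 ± 45.3, Sp7 at 79.8 ± 38.2 and Dlx5 at 58.0 ± 36.2. Periosteal-like cells, marked by Penk and Aspn, had Runx2 at 108 ± 33.8, Sp7 at 56.3 ± 21.1 and Dlx5 at 53.4 ± 33.4, while Dlx3 was at 1.32 ± 1.97. Among cells outside the stroma, mural-like cells had Dlx5 at 23.25 ± 11.8 and Runx2 at 32.6 ± 21.2.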
